A study of Bos taurus with 12 samples.

Results

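The genes described here encode the giant filament proteins of the sarcomere, the proteins of its M-band and the myosin-binding proteins that sit on the thick filament. They are TTN, NEB, MYOM1, MYOM2, MYOM3, MYBPC1, MYBPC2 and MYBPH, taken by symbol from a table of 18436 genes and from the m6A peak lists, so that 7 of the 8 had a row in the gene table. TTN had no row or peak under that name and was not analysed here. The 7 genes held 20 of the 19739 peaks in the myoblast list and 30 of the 20790 peaks in the myotube list.

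The study used primary skeletal myoblasts isolated from the back muscle (longissimus dorsi) of 1 newborn animal of the Qinchuan breed, with no transgene or genetic change. GM denotes proliferating myoblasts kept in growth medium with fetal bovine serum and taken at 80% confluence. DM denotes myotubes taken at 100% confluence after 4 days in a differentiation medium with horse serum. Each group had 3 input RNA libraries and 3 libraries immunoprecipitated (IP) with an antibody against m6A, 12 in all. The cells came from 1 animal, so the spread between libraries is that between cultures of the same cells, and p-values measure that spread and not the variation between animals.

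The sarcomere is the contractile unit of striated muscle, in which actin thin filaments slide past myosin thick filaments. Titin spans from the Z-disc to the M-band and acts as a spring and a ruler, and nebulin runs along the thin filament and stabilises it. The myomesins cross-link thick filaments and titin at the M-band in the middle of the sarcomere. Myosin-binding protein C occurs as a slow (MYBPC1) and a fast (MYBPC2) skeletal form that holds to the thick filament and tunes the contact of myosin with actin, and MYBPH is a shorter relative. N6-methyladenosine (m6A) is a methyl mark on adenosines of mRNA that influences splicing, export, translation and decay. It is often found near stop codons and in long internal exons.

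Expression was given as FPKM, fragments per kilobase of exon scaled to the mapped reads of the library, which allows levels of different genes to be compared within a library. A gene was called higher or lower in DM when limma gave a Benjamini-Hochberg adjusted p under 0.05 and the fold exceeded 1.5 on the log2(FPKM + 1) scale, over 12302 genes whose 6 inputs averaged 0.5 FPKM or more. By this rule 602 genes were higher and 846 lower, and the median log2 fold change was -0.05. Scaling to TPM moved that median to 0.06 and the share of higher genes among those called from 41.6% to 55.5%. The relative depth of the libraries read from the steps of short genes ran from 0.884 to 1.

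The muscle identity of the cultures was checked on 10 myogenic markers, all of which were detected. PAX7, the satellite cell factor, fell from 1.08 ± 0.10 FPKM (SD, n = 3) in GM to 0.06 ± 0.03 in DM, and MYF5 and MYOD1, the early myogenic factors, fell too. MYH3, the embryonic myosin heavy chain, rose from 273 ± 2.74 to 659 FPKM, with DM libraries at 666, 670.0 and 642 FPKM. ACTA1, the skeletal actin gene, was called lower, and DES, MYOG, MYMK and MYMX were not called. GM was not free of differentiated muscle transcripts, since MYH3 and the differentiation factor MYOG, at 197 ± 8.95 FPKM, were already high there. All 9 fibroblast markers were present, and none was called. Their summed FPKM was 16070.2 to 16230.2 in GM and 16919 to 18008 in DM, with COL1A1 at 6791 ± 182 and 7420.0 ± 146. The summed myogenic markers stood at 1144 to 1230.2 FPKM in GM and 1573 to 1626 in DM, and the summed smooth muscle markers at 255 to 288 and 211 to 222. Markers of other types were near 0, with sums in GM and DM of 1.21 to 1.36 and 1.94 to 2.66 FPKM for adipocytes, 0.331 to 0.497 and 0.415 to 0.653 for endothelium, 1.29 to 1.89 and 1.04 to 2.06 for immune cells, and 0.576 to 0.638 and 0.661 to 1.01 for heart. In these bulk libraries a change in the number of muscle cells cannot be told apart from a change in RNA per cell, and the part of cell makeup in the results was not tested.

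NEB, MYOM2, MYBPC1 and MYBPH were higher in DM, none of the 7 genes was lower, and MYOM1, MYOM3 and MYBPC2 stayed under the fold threshold. Of all tested genes, 4.89% were called higher and 6.88% lower, 11.8% in all. Every DM library lay above every GM library for each of the 7, a separation that 21.1% of all tested genes showed in that direction and 54.1% in either. The adjusted p alone was under 0.05 with a higher DM mean for all 7 genes, against 16.1% of tested genes. MYBPC1 passed the filter on low values through its DM libraries alone, so its place in these counts is not independent of the filter. With a filter on a mean of 1 FPKM it was not tested, and 3 of 6 genes were called. The median log2 fold change of the 7 was 1.03, and it too includes MYBPC1, at 1.25. A median without MYBPC1 was not worked out. The 7 genes together summed to 72.9 ± 2.74 FPKM in GM and 158 ± 5.01 FPKM in DM (SD, n = 3). The members and their order of change had been seen in earlier results of these data, and these counts are a description.

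**Figure D1:**
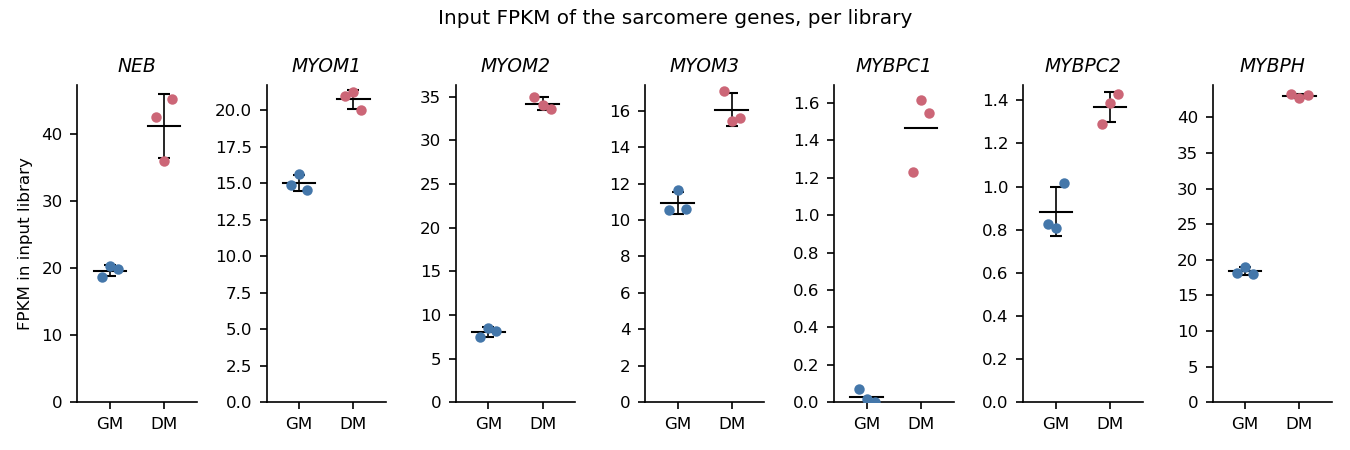
FPKM (y axis, a separate linear scale from 0 for each gene) in the 3 GM (blue) and 3 DM (red) input libraries, with the mean as a horizontal line and the SD as an error bar, which is left out for MYBPC1. Every DM library lies above every GM library for all 7 genes, by the smallest absolute margin for MYBPC2 and with MYBPC1 close to 0 in GM.

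NEB (ENSBTAG00000006907, chromosome 2 from 44434401 to 44651653, plus strand, ARS-UCD1.2) encodes nebulin, the giant thin filament protein, and its gene spans 217 kb with 9 annotated transcripts. Its FPKM was 18.8, 20.4 and 19.8 in the GM libraries and 42.6, 36.0 and 45.2 in the DM libraries. The groups were far apart, although DM was the more scattered group for this gene, with a coefficient of variation of 11.6% against 4.19% in GM. NEB rose from 19.7 ± 0.82 to 41.3 ± 4.77 FPKM (SD, n = 3), a log2 fold change of 1.03 with a standard error of 0.08 (limma, adjusted p = 3.7e-05). The fold was 2.04 with a 95% interval of 1.78 to 2.33, the 225th largest among the tested genes.

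MYOM2 (ENSBTAG00000009387, chromosome 27 from 1452466 to 1516585, plus strand) encodes M-protein, the M-band protein of fast fibres and heart. On the log2(FPKM + 1) scale it had the largest log2 fold change of the 7 genes, whereas with a pseudocount of 0.1 MYBPC1 had a larger one (3.61 against 2.07). Its FPKM was 7.48, 8.49 and 8.21 in GM and 35.0, 34.0 and 33.6 in DM, without overlap and with little scatter in either group. The mean moved from 8.06 ± 0.53 to 34.2 ± 0.73 FPKM, a log2 fold change of 1.96 with a standard error of 0.06 (limma, adjusted p = 2.6e-07). The fold was 3.89 with a 95% interval of 3.54 to 4.27, the 36th largest among the tested genes.

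MYOM1 (ENSBTAG00000019585, chromosome 24 from 37255784 to 37379159, minus strand) encodes myomesin, the M-band cross-linker found in all striated muscle. Its FPKM was 14.9, 15.6 and 14.5 in GM and 21.0, 21.3 and 20.0 in DM. The groups did not overlap, but the fold of 1.36 with a 95% interval of 1.25 to 1.48 lay under the threshold on its whole length (limma, adjusted p = 3.3e-04). That holds on the FPKM scale. On TPM the log2 fold change of MYOM1 was 0.58 with a standard error of 0.06, only just under the threshold. MYOM3 (ENSBTAG00000014885, chromosome 2 from 128788187 to 128839063, plus strand) encodes the third myomesin, known from slow and intermediate fibres. It read 10.5, 11.6 and 10.6 FPKM in GM and 17.1, 15.4 and 15.6 FPKM in DM, again without overlap. Its fold of 1.43 had a 95% interval of 1.29 to 1.58, which spans the threshold (limma, adjusted p = 3.7e-04), and on TPM MYOM3 was called higher with a log2 fold change of 0.66.

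The proportions of the 3 myomesins differed between the groups. MYOM2 made up 22.7%, 23.7% and 24.6% of the summed myomesin FPKM in the GM libraries and 47.9%, 48.1% and 48.6% in the DM libraries. MYOM1 went from 44.2 ± 0.92% to 29.2 ± 0.75% and MYOM3 from 32.1 ± 0.37% to 22.6 ± 0.77% (SD, n = 3). The groups did not overlap for any of the 3 shares, and the exact two-sided permutation test gave p = 0.1 for each, the smallest that 3 against 3 libraries allow. MYOM1 was the most abundant myomesin in every GM library and MYOM2 in every DM library, and the ratio of MYOM2 to MYOM1 was 0.537 ± 0.03 in GM and 1.65 ± 0.04 in DM. The summed myomesin FPKM was 34.0 ± 1.56 in GM and 71.0 ± 1.95 in DM. The ratio of MYOM1 to MYOM3 stayed closer, at 1.34 to 1.41 in GM and 1.23 to 1.38 in DM, with overlapping ranges.

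**Figure D2:**
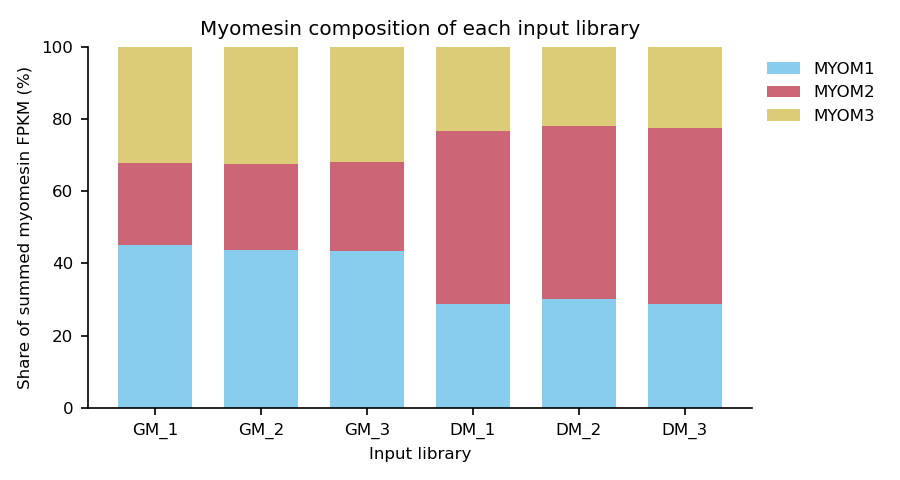
Share of the summed FPKM of MYOM1, MYOM2 and MYOM3 (y axis, percent) in each input library (x axis). MYOM2 takes 22.7 to 24.6% in the GM libraries and 47.9 to 48.6% in the DM libraries, and the shares of MYOM1 and MYOM3 are both lower in DM.

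MYBPH (ENSBTAG00000011465, chromosome 16 from 957169 to 965458, minus strand) encodes myosin-binding protein H and has the shortest gene span of the group, 8.29 kb. Its FPKM was 18.2, 19.0 and 18.0 in GM and 43.2, 42.7 and 43.2 in DM, and the DM libraries differed little. MYBPH rose from 18.4 ± 0.57 to 43.0 ± 0.29 FPKM (SD, n = 3), a log2 fold change of 1.18 with a standard error of 0.05 (limma, adjusted p = 8.6e-07).

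MYBPC1 (ENSBTAG00000011392, chromosome 5 from 65398362 to 65500279, plus strand) encodes the slow skeletal form of myosin-binding protein C. It read 0.073 and 0.020 FPKM in 2 GM libraries and was listed at 0 in the third, while the DM libraries read 1.23, 1.62 and 1.55 FPKM. MYBPC1 rose by 1.25 on the log2(FPKM + 1) scale (limma, adjusted p = 2.0e-05). It passed the filter on low values through the DM libraries alone, so its presence among the tested genes already required a difference. The size depends on the pseudocount, being 3.61 with 0.1 in place of 1. MYBPC2 (ENSBTAG00000020080, chromosome 18 from 56581198 to 56607181, plus strand) encodes the fast skeletal form. It read 0.828, 0.810 and 1.01 FPKM in GM and 1.29, 1.39 and 1.43 FPKM in DM, without overlap. Its log2 fold change of 0.33 with a standard error of 0.08 was under the fold threshold (limma, adjusted p = 0.011). With a pseudocount of 0.1 the log2 fold change was 0.58, only just under the threshold. The plain ratio of the DM mean to the GM mean was 1.55, above 1.5. At this low level the size of the fold depends on the pseudocount.

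MYBPH dominated the 3 myosin-binding genes, at 94.6 to 95.8% of their summed FPKM in GM and 93.4 to 94.5% in DM. MYBPC1 took 2.69 to 3.54% in DM and at most 0.383% in GM, and MYBPC2 went from 4.59 ± 0.67% to 2.99 ± 0.14%. The exact two-sided permutation test gave p = 0.1 for each of these 3 shares, again the smallest possible. In DM the slow and the fast form of myosin-binding protein C had overlapping levels, whereas in GM the fast form was above the slow form in every library.

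**Figure D3:**
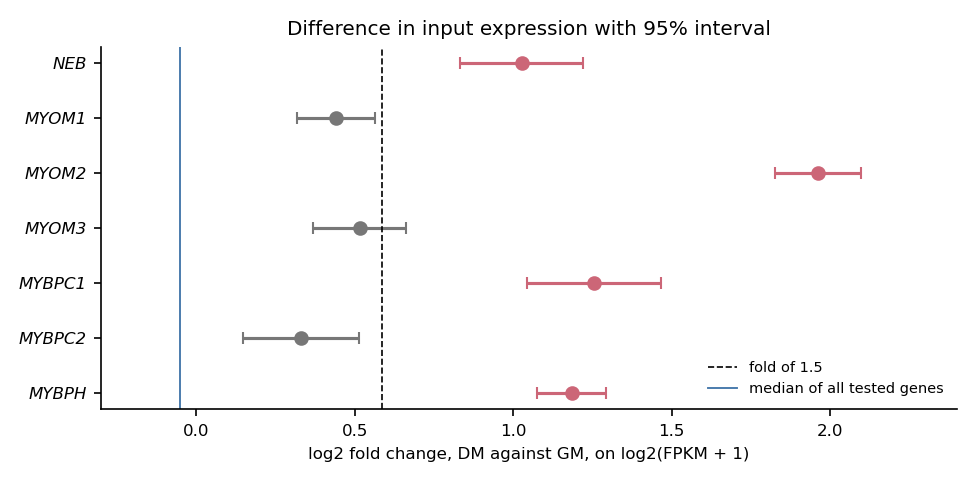
Log2 fold change of DM against GM on the log2(FPKM + 1) scale (x axis) for the 7 genes (y axis), with the 95% interval of limma as a bar. Genes called higher are red, the others grey, the dashed line marks a fold of 1.5 and the blue line the median of all tested genes at -0.05, and MYOM2 stands farthest to the right at 1.96.

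Ordered by level, NEB and MYBPH were the most abundant of the 7 genes in both groups, and their ranges overlapped in GM and in DM. In GM they were followed by MYOM1, MYOM3, MYOM2, MYBPC2 and MYBPC1, each separated from the next by non-overlapping ranges. In DM the order was MYOM2, MYOM1, MYOM3 and then MYBPC1 with MYBPC2. NEB exceeded MYOM2 by a ratio of 2.44 ± 0.06 in GM and 1.21 ± 0.14 in DM. The ratio of NEB to MYBPH was 1.03 to 1.11 in GM and 0.842 to 1.05 in DM, and these ranges overlapped.

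The relatives and partners of these proteins came from 4 lists of genes, chosen with earlier results of these data known. Among 17 genes related to titin, nebulin, the myomesins or the myosin-binding proteins, 10 were tested, 3 were higher and 1 was lower, with a median log2 fold change of 0.23. MYOT, the Z-disc protein myotilin, rose from 9.26 ± 0.47 to 44.2 ± 2.04 FPKM, and MYPN, its relative myopalladin, rose by 0.95 on the log2 scale. SPEG, a striated muscle kinase, fell from 6.08 ± 0.30 to 3.71 ± 0.25 FPKM, a log2 fold change of -0.59. It went back under the fold threshold, at -0.55 without GM replicate 3, -0.54 without DM replicate 2 and -0.54 on TPM or with size factors.

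Of 26 genes for proteins of the M-band or partners of titin and nebulin, 23 were tested, 8 were higher and 1 was lower, with a median log2 fold change of 0.37. CKM, the muscle creatine kinase that docks at the M-band, rose from 10.2 ± 1.41 to 42.5 ± 2.55 FPKM. TRIM54, a ubiquitin ligase of the family that binds titin at the M-band, rose from 2.43 ± 0.39 to 12.2 ± 0.67 FPKM. FHL2, an adaptor that links metabolic enzymes to titin, fell by 0.76 on the log2 scale. Among 10 factors of myosin folding and sarcomere assembly, 9 were tested and 2 were higher, SMYD1, a methyltransferase that binds myosin, by 1.44 and MEF2C, a transcription factor of sarcomere genes, by 3.02 on the log2 scale.

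For comparison, 15 of 20 tested genes for sarcomere contractile proteins were higher and 1 was lower, with a median log2 fold change of 0.87, led by the myosin genes MYL2 at 1.88 and MYH8 at 1.74. ACTA1, the skeletal actin gene, fell from 110.2 ± 20.9 to 70.0 ± 11.0 FPKM, a log2 fold change of -0.64 that was likewise not called without GM replicate 3 (-0.53), without DM replicate 2 (-0.51), on TPM (-0.52) or with size factors (-0.58). The 5 genes whose profile over the 6 input libraries was most like the mean standardised profile of the 7 were CSRP2, CCN4, PVR, C1S and MEF2C, with Pearson r of 0.9998, 0.9997, 0.9996, 0.9995 and 0.9995. The points fall into the GM and DM clusters, and 8.13% of 12295 genes had an r over 0.95.

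The m6A peak lists used here give each peak 1 fold enrichment per group, the ratio of IP over input in the pooled libraries. No error between replicates can therefore be attached to these values. At least 1 peak lay in 6 of the 7 genes in GM and in all 7 in DM, against 70.9% and 78.7% of all tested genes. By annotation 14 of the 20 GM peaks and 23 of the 30 DM peaks were exonic, 6 and 7 were in the 3' UTR and none was in the 5' UTR, whereas over the lists 41.3% and 36.5% were exonic, 42.6% and 45.3% were in the 3' UTR and 16.1% and 18.2% were in the 5' UTR. NEB alone gave 10 and 15 of the exonic peaks. The class can depend on the transcript chosen by the annotation. The MYOM3 peak ending at 128839063 was labelled 3' UTR in GM and exon 31 of 33 of another transcript in DM. A false discovery rate under 0.05 left 19 GM and 25 DM peaks, a fold enrichment of at least 2 left 9 and 12, and a false discovery rate under 0.001 left 15 in each list. Over the whole lists the lower quartile of fold enrichment was 2.11 in GM and 2.05 in DM, so most peaks of each list reached 2. Shares of the whole lists under these false discovery rates were not worked out.

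NEB carried 10 peaks in GM and 15 in DM, while 13 genes had more in the GM list and 1 gene had more in the DM list. All were annotated to exons, with 1 exon label per peak. The DM labels ran from the first exon to exon 114, in a transcript of 145 exons for 13 peaks and of 173 for 2. The DM peak labelled exon 114 held 23 exon blocks and covered in full a GM peak labelled exon 121. The NEB peaks covered 5226 exon bases in GM and 9491 in DM, with 96.0% of the GM bases inside DM peaks. Fold enrichment was 1.33 to 2.91 in GM and 1.09 to 2.99 in DM, and each NEB peak lay below the median of its whole list, 3.27 and 3.38. Among exonic peaks alone, the median was 2.72 in GM and 2.84 in DM, and 9 of 10 and 14 of 15 NEB peaks were below it.

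The strongest NEB peaks lay in the same stretch in both lists, toward the 3' end of the gene. In GM a peak of 15 exon blocks and 1469 bases, between 44617291 and 44634359, had a fold enrichment of 2.91. In DM a peak of 23 blocks and 2339 bases, between 44610117 and 44636287, had 2.99 and covered this GM peak and the one before it in full. A DM peak over the first exons, with 451 bases and a fold enrichment of 2.10, had no counterpart in GM, nor had a peak of 571 bases with 2.00 that was annotated to exon 56. The other 7 NEB peaks found in DM alone were weak, with fold enrichments of 1.09 to 1.21. Input FPKM of NEB was higher in DM as well, and the paper lists differing read numbers for the IP libraries. The part of input level or of IP read number in the number of peaks called was not tested. Nebulin is built from repeated modules, and 22 of the 81 NEB blocks in DM and 18 of 49 in GM had the same length, 105 bases. The authors kept uniquely aligned reads, which leaves out any read that matches several such exons.

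The myomesin peaks crowded at the 3' end of each gene. MYOM2 had a single peak per list over the same 659 bases, between 1515566 and 1516585 in the 3' UTR, with a fold enrichment of 11.5 in GM and 8.02 in DM. It was the strongest peak of the 7 genes in either group, above 94.4% of all GM peaks and 86.1% of all DM peaks. The ratio of DM over GM was 0.697, under the 1.5 threshold, while input FPKM of MYOM2 was higher in DM. After centring all ratios on their median, the MYOM2 pair passed the threshold as lower.

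MYOM1 had 4 peaks in GM and 5 in DM, the first of them beginning 107.5 kb into a gene of 123 kb. The strongest GM peak, between 37256771 and 37260012, had a fold enrichment of 3.44, and the DM peak that covered it had 3.96. The strongest DM peak, at 4.20, was a different one. The peak at the very end of the 3' UTR, starting at 37255784 in both lists, went from 2.81 over 270 bases to 4.20 over 360 bases, a ratio of 1.495 that lay just under the threshold. MYOM3 had 1 GM peak of 628 bases with a fold enrichment of 4.48. In DM the same stretch was split into a peak of 508 bases with 6.48 and a peak of 61 bases with 1.39, and all DM bases lay inside the GM peak.

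Among the myosin-binding genes, MYBPH had 1 peak per list in its 3' UTR, of 300 bases with a fold enrichment of 3.34 in GM and of 360 bases with 6.39 in DM. MYBPC2 had 3 exonic peaks in each list, the strongest at the 3' end with 5.01 in GM and 4.65 in DM. MYBPC1 had no GM peak and 3 DM peaks with fold enrichments of 1.51, 2.98 and 4.79, of which only the last, in the 3' UTR, had a false discovery rate under 0.05. Input FPKM of MYBPC1 was close to 0 in GM, and the part of this in the missing GM peaks was not tested.

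**Figure D4:**
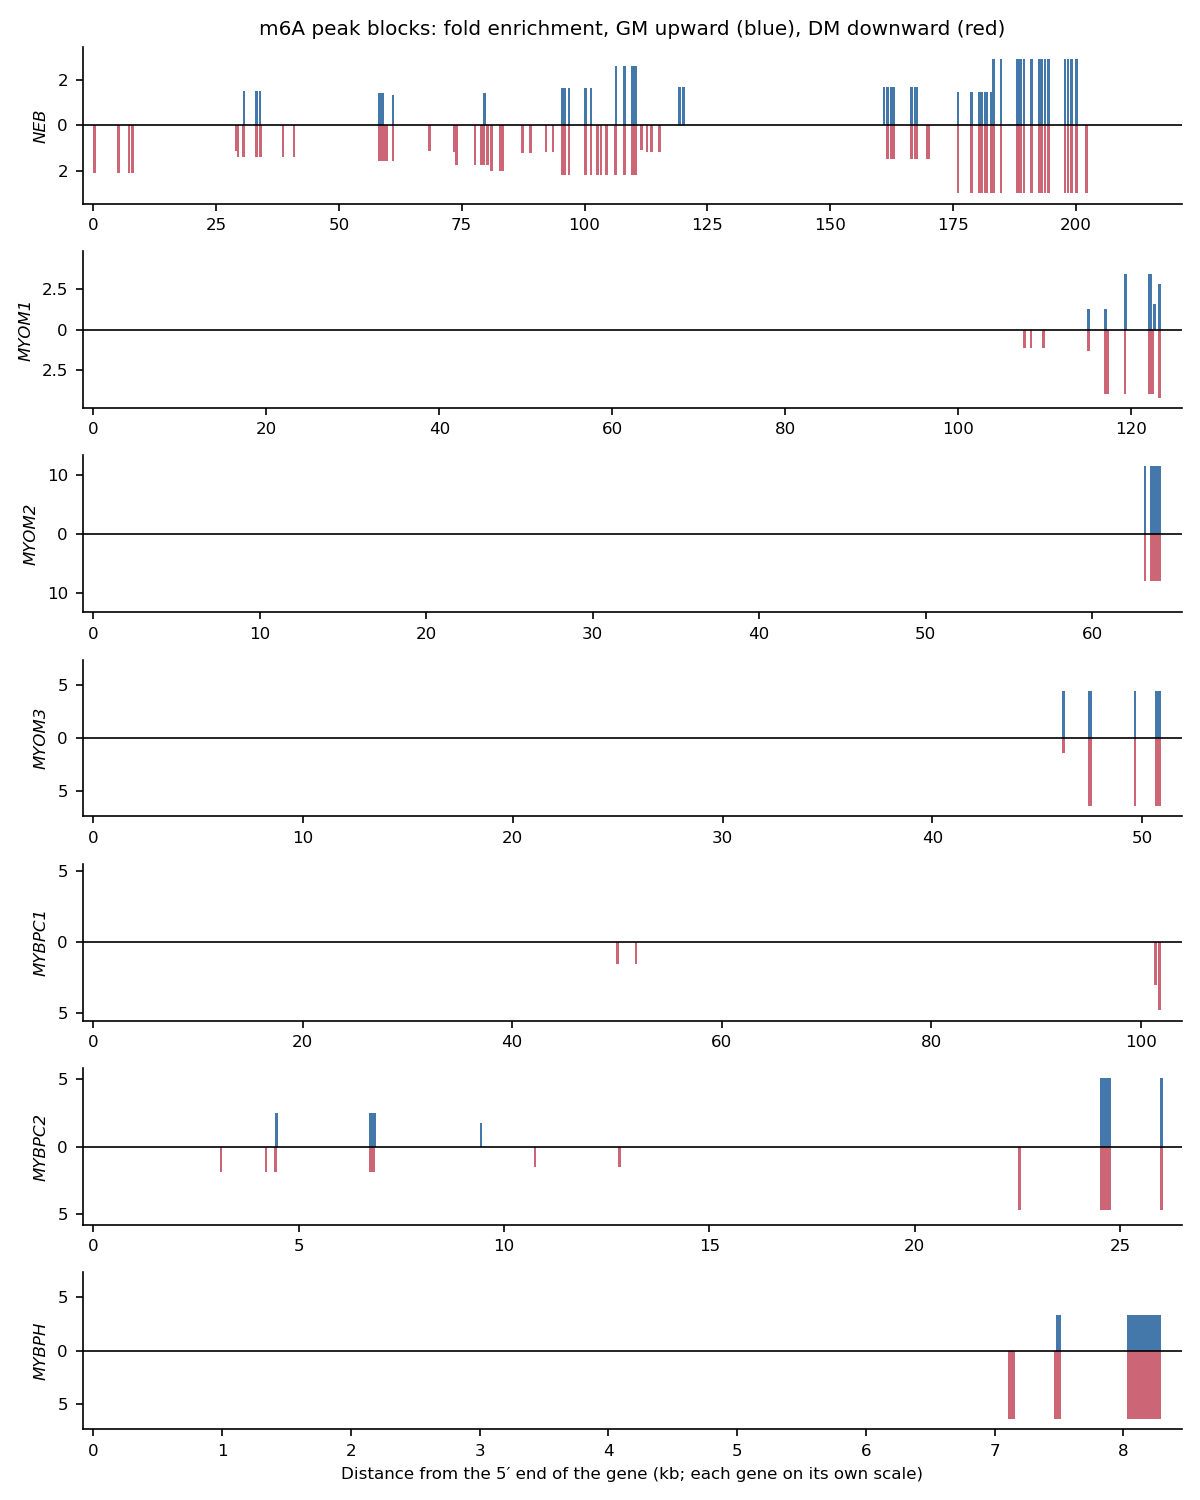
Exon blocks of the m6A peaks along each gene (x axis, kb from the 5′ end of the gene, each gene on its own scale; very short blocks are widened to be visible), with fold enrichment of IP over input (y axis) upward for GM in blue and downward for DM in red. NEB blocks run over most of the gene at low enrichment, and the blocks of MYOM1, MYOM2, MYOM3 and MYBPH lie at the 3′ end.

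Of the peaks of the 7 genes, 8 GM peaks overlapped exactly 1 DM peak that overlapped no other, and a ratio was taken for each such pair. They comprised 3 pairs of NEB, 2 of MYBPC2 and 1 each of MYOM1, MYOM2 and MYBPH. Only the MYBPH pair, with a ratio of 1.91, exceeded 1.5 as higher in DM, and none exceeded it as lower, against 14.2% higher and 10.8% lower, 25.0% in all, among all 10239 such pairs. Fold enrichment in this pair and input FPKM of MYBPH were both higher in DM. The NEB pairs had ratios of 0.914, 1.23 and 0.882, and the MYBPC2 pairs 0.757 and 0.928. The median log2 ratio was -0.12 for the 8 pairs and 0.07 for all pairs. Of the remaining peaks, 2 in GM and 15 in DM overlapped no peak of the other list. The same share over all peaks of the lists was not worked out, so these counts cannot be called unusual.

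**Figure D5:**
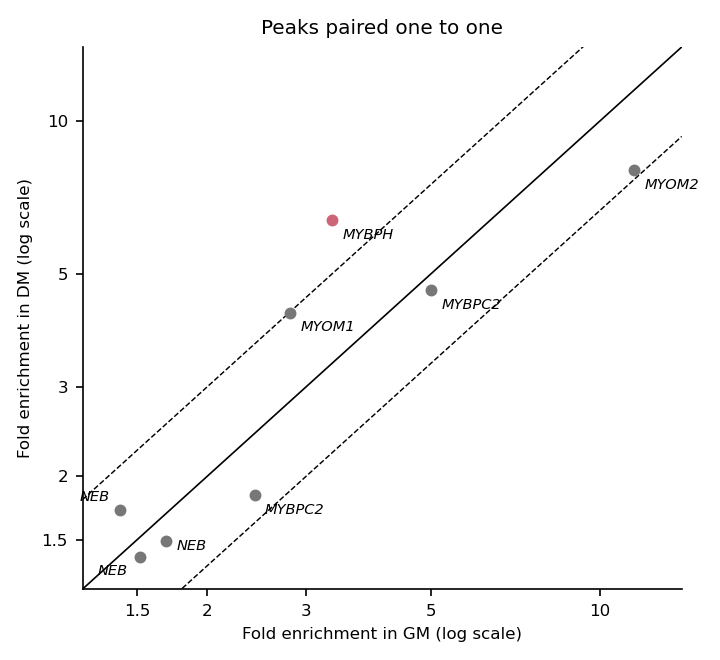
Fold enrichment of the 8 paired peaks in GM (x axis, log scale) and DM (y axis, log scale), with equality as a solid line and a ratio of 1.5 in either direction as dashed lines. MYBPH (red) lies above the upper dashed line, MYOM1 just under it, and the other 6 pairs between the dashed lines.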

How the data were processed

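Input RNA and m6A-immunoprecipitated RNA were sequenced from 3 GM and 3 DM cultures. The authors aligned strand-specific reads with HISAT2 to ARS-UCD1.2 and deposited FPKM values from StringTie for the 6 inputs. The submitters' processing notes also name cutadapt, fastp, HOMER and ChIPseeker, and versions were not given in the sources used here. The authors pooled the libraries of each group for exomePeak, and its fold enrichment is their linear ratio of IP over input. The paper also reports peaks called in each sample with MACS2, which were not used here. The p-value of each deposited peak is unadjusted, and a further deposited score column holds log10 of the false discovery rate. The gene table covers the 29 autosomes. Read counts behind the FPKM were not used here, so precision rests on 3 libraries per group. Steps in the FPKM of genes of 107 nt gave the relative depth, with 88.1 to 100.0% of these values within 0.1 of a whole multiple.

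The members and the gene lists were chosen with earlier results of these data known. Expression was fitted with limma 3.58.1 in R 4.3.3 on log2(FPKM + 1) with a variance trend, keeping genes that averaged 0.5 FPKM or more, with Benjamini-Hochberg adjustment over all tested genes, and checked on simulated data. All members were named, with the 2 largest called rises and falls of each list and every gene of a count of 5 or fewer, except 1 that is not reported here. Markers were named after their values were seen. Likeness was Pearson r to the mean standardised profile. Peaks were paired with Python 3.11.15, pandas 2.3.3 and numpy 2.4.6 by an overlap of at least 1 base of exon blocks on the same strand, and figures were drawn with matplotlib 3.10.9. Exact permutation tests used scipy 1.17.1. Alternatives covered the pseudocount, filter, scaling, thresholds, variance trend, replicate block, each library left out, and peak filters, overlap, gene assignment and centring.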

Additional observations from a re-analysis of the deposited data

How the results depend on the processing

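The count of 1448 called genes became 504 with a fold over 2 and 5268 with no minimum fold, and 1459 to 1503 with a library left out. The 4 members called stayed at 4 with each library left out, without a minimum fold 7 were called, and with a filter on a mean of 1 FPKM 3 of 6 tested were called, since MYBPC1 was no longer tested. With a fold over 2 the relatives of titin gave 1 call and the contractile genes 9. With no minimum fold the M-band partners gave 18 and the assembly factors 6. With a library left out the lists gave 3 to 4, 9 to 10, 2 to 2 and 15 to 16 calls for relatives, partners, assembly factors and contractile genes. SPEG and ACTA1, the called falls among relatives and contractile genes, lost their calls on TPM, with size factors, and without GM replicate 3 or DM replicate 2, and no other named list gene lost its call under the alternatives to scaling, filter, pseudocount, trend, block or libraries. No member's log2 fold change reversed under 13 or 14 alternatives each, and MYOM3 passed the threshold on TPM, at 0.66. Without 1 library, NEB ranged from 0.96 to 1.12, MYOM2 from 1.91 to 1.99, MYBPH from 1.17 to 1.21, and the change of the MYOM2 share of myomesin FPKM, an alternative chosen after seeing the data, from 24.0 to 24.9 percentage points. A fold enrichment of at least 2 left 9 GM and 12 DM member peaks, and a false discovery rate under 0.001 left 15 DM peaks. A ratio over 2 left 1029 changed pairs of 2562 and 0 of the members, and centring gave 2 member pairs, MYBPH and MYOM2. The cause of these differences was not tested beyond the thresholds themselves.

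With a replicate block, 1459 genes and 4 members were called. The replicate numbers did not mark pairs in the labels, and deviations of libraries with the same number correlated at -0.079, -0.123 and -0.208, so no library correlated best with its own number. The block changed no call of a member. The small number of libraries and the single pooled value per peak limit these comparisons, and at FPKM near 0, as for MYBPC1 in GM, neither level nor methylation was detectable with precision.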

Other observations

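Between CCDC141 and PLEKHA3 on chromosome 2, where the RefSeq annotation of ARS-UCD2.0 places TTN, the gene table held 6 gene models without a symbol. They were not counted as TTN, because neither the table nor the annotation pairs them with that name. ENSBTAG00000052709 read 9.09, 9.55 and 8.59 FPKM in GM and 63.7, 46.5 and 56.6 FPKM in DM, without overlap. It was called higher in DM with a log2 fold change of 2.48, and held 2 GM peaks and 1 DM peak. ENSBTAG00000053626 read 6.37, 7.17 and 7.63 FPKM in GM and 18.3, 16.4 and 19.9 FPKM in DM, and was also called higher, with a log2 fold change of 1.25. It had 1 peak in each list. The other 4 models had a mean under 0.5 FPKM over the 6 inputs and were not tested. Of these, ENSBTAG00000052033 and ENSBTAG00000053974 each held 1 DM peak and none in GM, and the rest held no peak.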
